A study of Mus musculus with 7 samples.

Results

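The 43 genes described here act in G2 and mitosis: cyclins and their kinase, mitotic kinases, centromere and kinetochore proteins, spindle motors and the machinery of cytokinesis. They were taken by their symbols, as a fixed list of names, from the deposited table of 54347 genes, and all 43 were found and measured in every library. The table describes long-term haematopoietic stem cells (LT-HSCs) sorted from the bone marrow of female mice, 3 Emcn-/- (KO, libraries ko_306, ko_314 and ko_320) and 4 Emcn+/+ littermates (WT, libraries wt_284, wt_290, wt_310 and wt_312), where the number is that of the mouse. Both groups carry the strain label C57BL/6N-EMCN em1(IMPC)Wtsi /WtsiH, the labels name no age and no treatment, and each library came from 3000 to 5000 cells of a single mouse. The sort followed depletion of lineage-positive cells and used c-Kit, Sca-1, CD150, CD48 and CD16/CD32 beside lineage antibodies. Endomucin, the product of Emcn, is a mucin-like surface glycoprotein known from endothelium and stem cells, and the study's title links it to quiescence. The comparison made here asks whether the transcripts of cell division differ in LT-HSCs that lack it.

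As background, most of these genes are silent in resting cells and are transcribed from late S phase to mitosis. In quiescence and early G1 the DREAM complex holds them off, and later B-MYB and FOXM1, bound to the same MuvB core, switch them on. Cyclin A and cyclin B with CDK1 then drive entry into mitosis, kinetochores tie chromosomes to spindle microtubules, and the anaphase-promoting complex (APC/C) ends mitosis by marking securin and the cyclins for degradation. Adult LT-HSCs are known to be mostly quiescent, and the progenitors they give rise to divide often.

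Promoters of such genes are known for a CHR element, to which the MuvB core binds, often together with CCAAT boxes bound by NF-Y. RefSeq promoter sequences (build GRCm38.p6) were matched for 35 members, and the 250 bases before each annotated start were searched on both strands. The CHR letters TTTGAA or TTCGAA were present in 13 of these 35 members (37.1%), against 19.6% of all 27025 genes with a promoter sequence. The letters CCAAT were present in 26 members (74.3%), against 37.5% of all genes, and at 2 or more places in 18 members (51.4%), against 11.5%. Both motifs stood in the same window in 12 members (34.3%), against 7% of all genes. The 5 sequences shown are the 150 bases before the start of members that return in the values: Top2a and Kif11, highest in wt_284, and Ckap2, Spc25 and Kif20b, highest in ko_320. They run 5′ to 3′ on the strand of the gene, with CHR and CCAAT letters of either strand in capitals.

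Top2a (chr11:99024190-99024339, minus strand): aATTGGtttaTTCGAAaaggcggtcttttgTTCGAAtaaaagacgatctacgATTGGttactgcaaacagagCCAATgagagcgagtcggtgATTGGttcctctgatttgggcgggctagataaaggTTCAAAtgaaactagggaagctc
Kif11 (chr19:37376232-37376381, plus strand): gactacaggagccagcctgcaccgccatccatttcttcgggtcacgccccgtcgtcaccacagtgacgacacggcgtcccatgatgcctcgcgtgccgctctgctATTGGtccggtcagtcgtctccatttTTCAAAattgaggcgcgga
Ckap2 (chr8:22185820-22185969, minus strand): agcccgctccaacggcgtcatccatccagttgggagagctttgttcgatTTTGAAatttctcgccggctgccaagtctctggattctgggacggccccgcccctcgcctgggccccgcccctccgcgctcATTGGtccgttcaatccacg
Spc25 (chr2:69206214-69206363, minus strand): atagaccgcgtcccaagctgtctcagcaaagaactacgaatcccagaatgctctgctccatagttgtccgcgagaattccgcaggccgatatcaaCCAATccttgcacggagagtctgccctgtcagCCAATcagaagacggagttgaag
Kif20b (chr19:34922208-34922357, plus strand): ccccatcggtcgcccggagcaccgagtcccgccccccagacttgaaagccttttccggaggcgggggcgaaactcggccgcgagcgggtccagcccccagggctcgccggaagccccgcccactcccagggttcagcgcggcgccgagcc

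Top2a holds a CHR match that starts 23 bases before the annotated start, and Kif11 holds it 19 bases before. In Ckap2 it lies 101 bases before the start. Spc25 holds 2 CCAAT matches and no CHR letters, and the Kif20b window holds neither, which says only that these letters are not in this window. In Cdk1, Cdc20 and Ube2c, not printed, the nearest CHR match begins 15, 18 and 29 bases before the start. The members with and without CHR letters had near-equal medians, given here with no test: the median log2 fold change (KO minus WT) was -0.23 in the 13 members with CHR letters and -0.23 in the 22 without.

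Library totals ran from 6648881 to 11101774 counts in KO and from 6444134 to 10322741 in WT, and the lowest count of any member in any library was 60, for which counting error alone is 12.9%. Emcn checked the genotype labels, with 1, 0 and 0 counts in ko_306, ko_314 and ko_320 against 130 to 327 counts in WT. The stem cell genes Kit, Ly6a, Slamf1, Procr, Mecom and Hlf were present in all libraries. Kit, Slamf1, Mecom and Hlf were lowest in wt_284, and Ly6a and Procr were lowest in ko_314. Kit, the receptor of stem cell factor, stood at 568 to 782 CPM in KO and at 491 to 793 CPM in WT, where CPM is the count per 1000000 counts of the library, scaled for composition by TMM. One library stood apart: in wt_284 a list of 20 stem cell identity genes summed to 2357 CPM, while KO libraries held 3530 to 3758 CPM and the remaining WT libraries 3443 to 3861 CPM.

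Most members of the mitotic group had lower fitted levels in KO than in WT, but no member passed the test and no member separated the genotypes. Of 43 members 37 had a fitted log2 fold change below 0 and 6 above 0, against 52.4% of all 15372 genes tested below 0. The median over the members was -0.23, and over all genes tested it was -0.02. In edgeR (quasi-likelihood test, Benjamini-Hochberg adjustment over all genes tested, threshold 0.05) 0 members were called, where 0.00651% of all genes were called lower, Emcn itself and no other, and 0% higher. The members' adjusted p ran from 0.992 to 0.997, and 0 members had an unadjusted p under 0.05, against 3.27% of all genes in either direction. DESeq2 also called 0 members, where it called 0.0653% of genes lower, and edgeR without a filter on low counts called 0, where it called 0.256% lower. At an unadjusted p under 0.05 DESeq2 held 3 of the 43 members, against 5.43% of all genes it tested, and edgeR without a filter held 9, against 5.98% of all genes. Without wt_312 the edgeR count at that level was 8 members, against 6.78% of all genes. KO and WT values overlapped for every member, while for 4.86% of all genes tested they did not overlap, in either direction. All KO libraries lay below all WT libraries for 2.43% of all genes tested.

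The summed level of the 43 members was 3688, 3200 and 4627 CPM in ko_306, ko_314 and ko_320, against 7006, 4798, 3677 and 3083 CPM in wt_284, wt_290, wt_310 and wt_312. All 3 KO sums lay inside the WT range, and wt_284 stood well above every other library. The mean was 3838 ± 725 CPM in KO (SD, n = 3), against 4641 ± 1730 CPM in WT (SD, n = 4) and 3853 ± 871 CPM in WT without wt_284 (SD, n = 3). As a share of all counts the members took 0.323% to 0.450% in KO and 0.312% to 0.631% in WT. In bulk RNA of this kind fewer dividing cells and less RNA per dividing cell cannot be told apart.

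**Figure D1:**
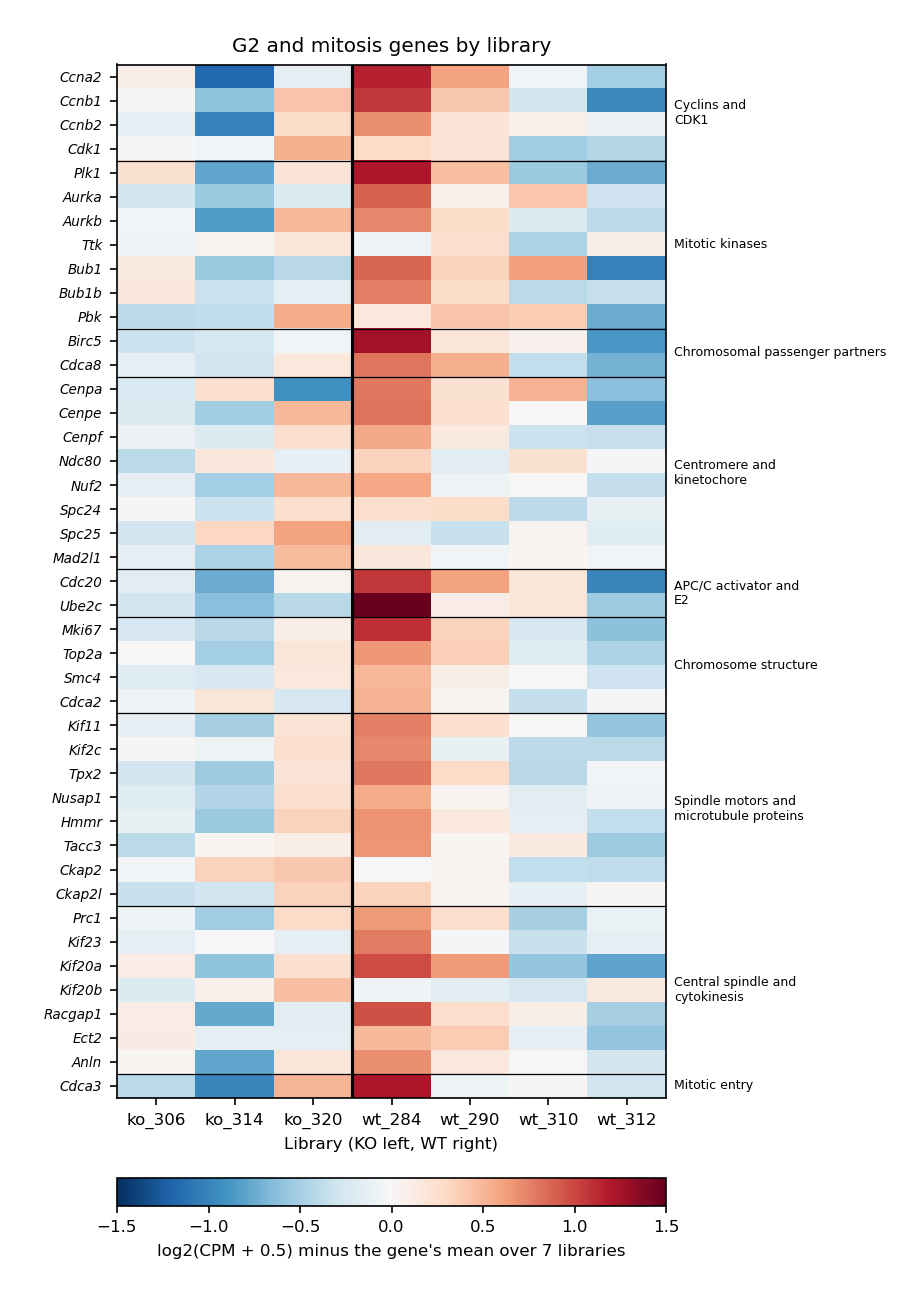
Heat map of the 43 members (rows, ordered by role) in 7 libraries (columns, KO left and WT right), with colour for log2(CPM + 0.5) minus the mean of that gene over all libraries. The column of wt_284 is red for most members, with 35 of 43 at their highest there, and the columns of ko_314 and wt_312 are mostly blue.

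Most members were high or low in the same libraries, and these libraries were of both genotypes. wt_284 was the highest of the 7 libraries for 35 of 43 members, where it was highest for 23.1% of all genes tested. The highest was ko_320 for 6 members (17.4% of all genes) and wt_290 for 2 (6.75% of all genes). The lowest library was ko_314 for 16 members (16.7% of all genes) and wt_312 for 16 (20.0% of all genes). Within KO, ko_320 exceeded ko_314 for 38 of 43 members, where it did so for 49.6% of all genes tested, and it exceeded ko_306 for 33 members (49.2% of all genes). Within WT, wt_284 exceeded wt_290 for 39 members (51.4% of all genes), wt_290 exceeded wt_312 for 39 (51.2%), and wt_310 exceeded wt_312 for 32 (49.9%). The median member stood 0.70 above its own mean over the libraries on the log2 scale in wt_284, 0.20 above it in wt_290 and 0.19 above it in ko_320. The corresponding values were -0.44 in ko_314 and -0.38 in wt_312. The ratio of the highest to the lowest library ran from 1.6 for Spc24 to 5.07 for Ccna2, with a median of 2.36.

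Without wt_284 the members were split almost evenly between lower and higher fitted levels. The fit of the other 6 libraries gave 21 members below 0 and 22 above 0, against 49.9% of all 14897 genes tested below 0, with a median over the members of 0.01. It called 0 members, where it called 0.0134% of all genes lower and 0.00671% higher, and all 43 had an adjusted p of 0.999. In that fit 16 members changed sign and 34 had a smaller absolute log2 fold change. Of the 43 members, 0 had all KO libraries below the remaining WT libraries, against 3.60% of all genes, and 1 had all of them above, Kif2c, against 3.67% of all genes. The median also moved without ko_314 (-0.08, with 28 members below 0), without ko_320 (-0.40) and without wt_312 (-0.35). With the mice numbered above 300 only, 3 KO and 2 WT, the members were below 0 in 10 cases and above 0 in 33, where 48.9% of all genes lay below 0, and the median was 0.15. That last set was chosen after the values were seen, because the 2 WT libraries with the highest sums, wt_284 and wt_290, come from the 2 lowest mouse numbers. The labels do not say what a mouse number stands for.

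Among the cyclins and CDK1, 3 of 4 members had a fitted level below 0, and the median of their log2 fold changes was -0.36 (-0.05 without wt_284). Ccna2, the cyclin of S phase and early mitosis, had 62.2, 25.6 and 52.3 CPM in KO, against 130.1, 88.2, 56.2 and 40.7 CPM in WT. The lowest value was in ko_314 and the 2 highest were WT, while the remaining KO and WT values lay among each other. Its log2 fold change was -0.75 ± 0.46 (SE), or -0.40 without wt_284. Ccnb1 and Ccnb2, the B-type cyclins that bind CDK1 at entry into mitosis, had -0.26 ± 0.46 and -0.46 ± 0.30 (SE). Ccnb1 had 0.17 without wt_284 and 0.59 with mice above 300. Cdk1, the kinase itself, had 42.0, 41.8 and 62.3 CPM in KO, against 52.7, 49.2, 29.6 and 31.8 CPM in WT. Its highest library was ko_320 and its lowest wt_310. The log2 fold change was 0.25 ± 0.25 (SE) with a 95% interval from -0.30 to 0.80, so the partner cyclins and the kinase had fitted changes of opposite sign, with intervals that overlap.

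Of the 7 mitotic kinases 6 were below 0 in the fit, with a median of -0.23 (0.05 without wt_284). Aurka, which encodes the centrosome kinase Aurora A, had 14.6, 12.1 and 15.5 CPM in KO, against 33.6, 19.1, 24.1 and 14.4 CPM in WT. Only wt_312 among the WT libraries reached down into the KO range, and the log2 fold change was -0.70 ± 0.32 (SE), at an unadjusted p of 0.0520 and an adjusted p of 0.992. It was -0.44 without wt_284 and -0.45 with mice above 300. Bub1b, the checkpoint pseudokinase BubR1, had 87.0, 62.0 and 70.8 CPM in KO, against 131.6, 93.8, 58.7 and 60.9 CPM in WT, and -0.23 ± 0.28 (SE). Pbk, a mitotic MAPKK-like kinase, had 19.7, 20.0 and 38.6 CPM in KO, against 29.1, 35.1, 34.1 and 15.4 CPM in WT. For Bub1b wt_310 and wt_312 stood below all KO values, and for Pbk the highest library was ko_320. Plk1, the polo kinase of mitotic entry, had -0.37 ± 0.49 (SE) and a WT spread from 9.25 to 37.2 CPM that contained nearly the whole KO range of 8.95 to 18.6 CPM. Bub1, a kinase of the spindle checkpoint, had -0.61 ± 0.40, Aurkb, the kinase of the chromosomal passenger complex, had -0.21 ± 0.36, and Ttk, the checkpoint kinase MPS1, had 0.09 ± 0.27.

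Birc5 and Cdca8 encode survivin and borealin, which hold Aurora B at the centromere. Birc5 had 25.8, 27.0 and 31.5 CPM in KO, against 78.3, 37.0, 33.9 and 17.5 CPM in WT. Cdca8 had 33.1, 29.8 and 40.8 CPM in KO, against 64.2, 53.6, 28.1 and 22.2 CPM in WT. For both genes the 3 KO values stood close together inside a wide WT range, with wt_284 at its top and wt_312 at its bottom. The log2 fold changes were -0.57 ± 0.42 and -0.29 ± 0.34 (SE), and without wt_284 they were -0.07 and -0.01.

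**Figure D2:**
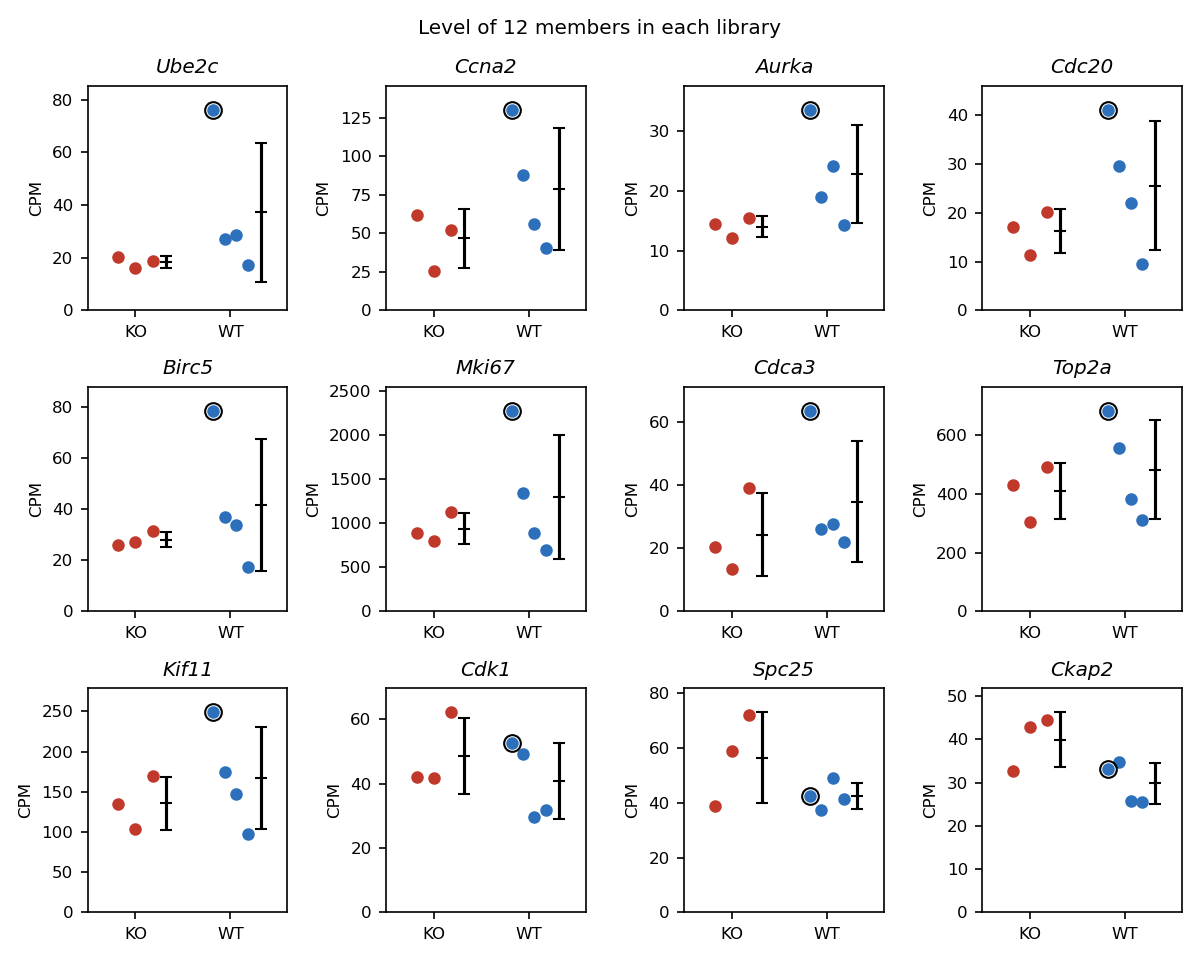
CPM of 12 members in each KO (left) and WT (right) library, with the mean and SD of each group beside the points and wt_284 ringed in black. For Ube2c, Birc5 and Mki67 the ringed point lies far above the rest. In these genes wt_290 also lies above all KO points and wt_312 within or below them. The point of wt_310 lies above all KO points for Ube2c and Birc5 and among them for Mki67. For Cdk1, Spc25 and Ckap2 the highest library is ko_320.

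The proteins that shape and coat mitotic chromosomes held the most abundant members. Mki67 encodes Ki-67, the coat of mitotic chromosomes and the usual marker of dividing cells, and lies on chromosome 7 from 135689784 to 135716361 on the minus strand (GRCm38). It had 894, 794 and 1131 CPM in KO, against 2275, 1340, 896 and 694 CPM in WT. Top2a, the topoisomerase that untangles sister chromatids (chromosome 11, 98992943 to 99024189, minus strand), had 432, 305.7 and 494 CPM in KO, against 683, 556, 382 and 312.3 CPM in WT. In both genes wt_284 and wt_290 were the 2 highest libraries and ko_320 came next, with wt_312 and ko_314 at the bottom. The log2 fold changes were -0.47 ± 0.42 for Mki67 and -0.24 ± 0.28 for Top2a (SE), and without wt_284 they were -0.05 and -0.02. Smc4, a condensin subunit, had -0.18 ± 0.19, and Cdca2, which brings phosphatase PP1 to chromatin in anaphase, had -0.12 ± 0.23. Scaled per kilobase of annotated exon (GENCODE M21), the levels averaged over all libraries were 114 CPM per kb for Mki67, 68.2 for Smc4 and 50.2 for Top2a. The next were Ccnb2 at 26.3 and Tpx2 at 23.1 CPM per kb, and the lowest were Kif2c at 4.14 and Ttk at 4.10 CPM per kb. These per-length levels rest on the exons of every annotated isoform, so they order genes only roughly.

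The 8 centromere and kinetochore members had the median log2 fold change nearest 0 among the role lists, at -0.07, with 7 of 8 below 0, or 2 of 8 without wt_284. Cenpf, a large kinetochore protein of late G2, had 233, 215 and 295 CPM in KO, against 369.8, 276, 198 and 196 CPM in WT. Cenpe, the kinesin that carries chromosomes to the equator, had 121, 98.0 and 197 CPM in KO, against 248, 167, 142 and 80.0 CPM in WT. The KO values of both lay within the WT range, and the log2 fold changes were -0.07 ± 0.22 and -0.20 ± 0.40 (SE). Spc25 and Spc24 pair with Nuf2 and Ndc80 in the NDC80 complex, the part of the kinetochore that grips microtubules. Spc25 had 38.8, 58.8 and 71.8 CPM in KO, against 42.3, 37.5, 48.9 and 41.5 CPM in WT. 2 KO libraries were above all WT libraries and ko_306 was among them, with a log2 fold change of 0.41 ± 0.22 (SE), an unadjusted p of 0.0908 and the same 0.41 without wt_284. Of the other subunits of that complex, Ndc80 had -0.21 ± 0.20, Nuf2 had -0.07 ± 0.27 and Spc24 had -0.04 ± 0.26. Cenpa, the histone H3 variant of centromeres, had -0.55 ± 0.35, with its lowest library ko_320, where most members were above their mean. Mad2l1, the checkpoint protein MAD2, had -0.01 ± 0.23 and a KO range from 31.2 to 60.6 CPM around a WT range from 42.0 to 49.0 CPM.

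Cdc20, which activates the APC/C in mitosis, and Ube2c, the ubiquitin-conjugating enzyme that works with it, had among the lowest fold changes. Ube2c had 20.4, 16.1 and 18.7 CPM in KO, against 76.0, 27.2, 28.6 and 17.1 CPM in WT. Only wt_312 fell within the KO range, and wt_284 stood far above every other library. The log2 fold change was -1.01 ± 0.46 (SE), the lowest of the 43, with a 95% interval from -2.04 to 0.01 and an unadjusted p of 0.0524, and it was -0.39 without wt_284. Cdc20 had 17.1, 11.3 and 20.1 CPM in KO, against 41.0, 29.6, 22.0 and 9.50 CPM in WT, and -0.65 ± 0.43 (SE). Its 3 highest libraries were WT and its lowest was the WT library wt_312. With mice above 300 the values were -0.30 for Ube2c and 0.05 for Cdc20.

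Of the 8 genes of spindle motors and microtubule proteins 6 were below 0 in the fit, with a median of -0.21, or -0.01 without wt_284. Kif11, the motor that pushes spindle poles apart, had 134, 104 and 169 CPM in KO, against 249, 175, 147 and 97.6 CPM in WT. Tpx2, the activator of Aurora A on the spindle, had 85.2, 71.0 and 118 CPM in KO, against 179, 127, 77.0 and 100.3 CPM in WT. In both wt_284, wt_290 and ko_320 were the 2 highest WT and the highest KO libraries, and the log2 fold changes were -0.30 ± 0.30 and -0.40 ± 0.28 (SE). Ckap2, a microtubule-stabilising protein, had 32.6, 42.8 and 44.3 CPM in KO, against 33.2, 34.7, 25.8 and 25.6 CPM in WT. Here 2 KO libraries were above all WT libraries and wt_284 was in the middle, with a log2 fold change of 0.42 ± 0.22 (SE), the highest of the 43, at an unadjusted p of 0.0833. It was 0.48 without wt_284 and 0.64 with mice above 300. Its relative Ckap2l had -0.14 ± 0.21. Kif2c, a motor that takes microtubules apart at the centromere, had 17.7, 16.6 and 20.6 CPM in KO, against 29.2, 16.1, 13.1 and 13.1 CPM in WT, so that its KO values lay below wt_284 and above the other 3 WT libraries. Its log2 fold change was 0.03 ± 0.33, and 0.38 without wt_284. Nusap1, a microtubule bundler, had -0.23 ± 0.22, Hmmr, a spindle pole protein, had -0.20 ± 0.27, and Tacc3, a spindle protein that binds clathrin and chTOG, had -0.22 ± 0.26.

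**Figure D3:**
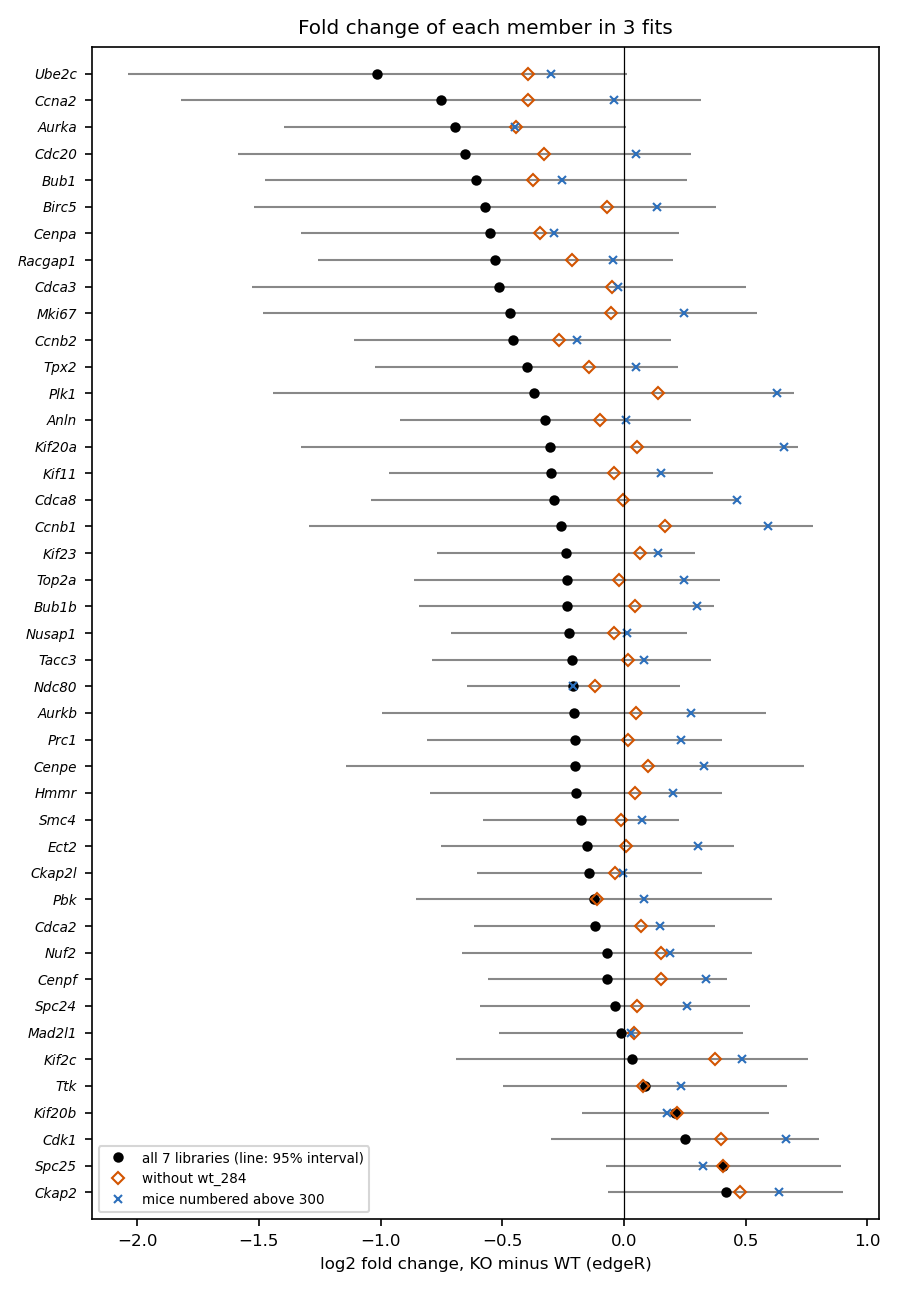
Log2 fold change (KO minus WT, edgeR) of the 43 members, ordered by the fit of all 7 libraries (black, with 95% intervals), beside the fits without wt_284 (open diamonds) and with mice numbered above 300 (crosses). All 43 intervals include 0, and most diamonds and crosses lie to the right of the black points.

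For the central spindle and cytokinesis, 6 of 7 members were below 0, with a median of -0.24, or 0.02 without wt_284. Prc1, which bundles the microtubules of the central spindle, had 88.1, 64.1 and 113 CPM in KO, against 145, 111, 65.1 and 86.2 CPM in WT. Racgap1, which with Kif23 forms centralspindlin, had 55.0, 29.8 and 45.7 CPM in KO, against 99.6, 61.6, 54.3 and 36.1 CPM in WT. KO and WT overlapped in both, and the log2 fold changes were -0.20 ± 0.27 and -0.53 ± 0.33 (SE). The kinesins Kif20a and Kif20b, which act at the central spindle and in abscission, differed from each other in order. Kif20b had 115, 140.0 and 182 CPM in KO, against 127, 118, 111 and 147 CPM in WT, with 0.21 ± 0.18, while Kif20a had 20.7 to 37.6 CPM in KO and 18.2 to 63.4 CPM in WT, with -0.31 ± 0.45 (SE). wt_284 was the highest library for Kif20a and the fourth highest for Kif20b. Kif23 had -0.24 ± 0.24, Ect2, the exchange factor that activates RhoA for furrowing, had -0.15 ± 0.28, and Anln, the furrow scaffold anillin, had -0.32 ± 0.27. Cdca3, which promotes the destruction of the mitotic inhibitor WEE1, had 20.5, 13.6 and 39.0 CPM in KO, against 63.5, 26.0, 27.7 and 22.1 CPM in WT. wt_284 was far above the other 3 WT libraries, and the log2 fold change of -0.52 ± 0.45 (SE) was -0.05 without it.

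The size of difference that these data can show is limited. Every one of the 43 intervals included 0, 26 lay within 2-fold in either direction, and 17 included a level 2-fold lower in KO. The median coefficient of variation was 24.8% in KO and 34.7% in WT, or 25.4% in WT without wt_284. Some members share bases with a gene on the other strand, and no source used here gives the strand setting of the counting. This holds for 29.3% of the exon bases of Kif20a (with Cdc23), 22.8% of Ube2c (Tnnc2), 12.5% of Ccna2 (Exosc9) and 11.1% of Prc1 (Rccd1). Annotated pseudogenes named after Ccnb1 and Ccnb2 could also take or lend reads.

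Markers of other blood lineages, against which the sort used depletion and antibodies, were also highest in wt_284. A list of 22 neutrophil and monocyte genes summed to 796, 319 and 271 CPM in ko_306, ko_314 and ko_320, against 15936, 1420, 1447 and 347 CPM in wt_284, wt_290, wt_310 and wt_312. An erythroid list, of which 18 genes were tested, summed to 737 to 936 CPM in KO and to 5419 CPM in wt_284, with 699.6 to 1664 CPM in wt_290, wt_310 and wt_312. Without wt_284, 18 of 20 tested genes of the neutrophil and monocyte list and 16 of 18 of the erythroid list were below 0. With it, all 22 tested genes of the neutrophil and monocyte list and all 18 of the erythroid list had fitted levels below 0. Mpo, the myeloperoxidase of granulocyte precursors, had 5.42, 8.95 and 8.79 CPM in KO, against 1084, 203, 79.2 and 27.2 CPM in WT. EdgeR did not call Mpo with all libraries (adjusted p 0.992), while DESeq2 (0.00719) and edgeR with mice above 300 (0.0200) did. Elane, checked beside Mpo, did not separate the genotypes. It had 148, 24.1 and 7.34 CPM in wt_284, wt_290 and wt_310, but its lowest library was wt_312 at 0.385 CPM. Its highest KO value was 4.58 CPM in ko_320. With mice above 300 the log2 fold change was -2.79 for Mpo and -0.49 for Elane. Irf8, a factor of the monocyte lineage, had 3.57 to 6.26 CPM in KO, against 12.3 to 89.9 CPM in WT, and Cpox, an enzyme of haem synthesis, had 22.5 to 42.5 CPM in KO, against 39.0 to 147 CPM in WT. The multipotent progenitor list, with 7 of 8 tested genes below 0, stood at 181 to 254 CPM in KO, against 616 CPM in wt_284 and 216 to 252 CPM in the remaining WT mice. The mast cell and basophil list, with 5 of 6 tested genes below 0, summed to 4.62 to 14.3 CPM in KO, against 216 CPM in wt_284 and 16.1 to 39.0 CPM in the remaining WT mice. The list of B, T and NK cell genes, with 4 of 5 below 0, summed to 21.1 to 28.6 CPM in KO, against 145 CPM in wt_284 and 17.7 to 35.6 CPM in the remaining WT mice. Without wt_284, 6 of 7 tested progenitor genes, 5 of 6 mast cell genes and 2 of 4 lymphoid genes were below 0. With mice above 300 these counts were 3 of 7, 5 of 6 and 1 of 4. Gzmb of the mast cell list and Igll1, Cd3e and Cd3g of the lymphoid list had 0 counts in all KO libraries, and Cma1 had 0 counts in all 7. The endothelial and stromal list summed to 119 to 142 CPM in KO and 108 to 130.4 CPM in WT, with 3 of 7 below 0 and Cdh5 at 0 in KO. Many genes of these lists had few counts. The filter kept 6 of 9 genes of the mast cell list, 5 of 16 of the lymphoid list and 7 of 10 of the endothelial and stromal list. WT counts of the genes at 0 in KO are not given here, so these zeros show no difference between genotypes. The part of these cells in the levels of the mitotic genes was not tested. In WT the mitotic, neutrophil and monocyte, and erythroid sums were all highest in wt_284 and lowest in wt_312. In KO the erythroid sum was 935 CPM in ko_306, 737 CPM in ko_314 and 936 CPM in ko_320. It was almost equal in ko_306 and ko_320, which differed in the mitotic sum, and both sums were lowest in ko_314. The neutrophil and monocyte sum was lowest in ko_320, where the mitotic sum was highest.

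**Figure D4:**
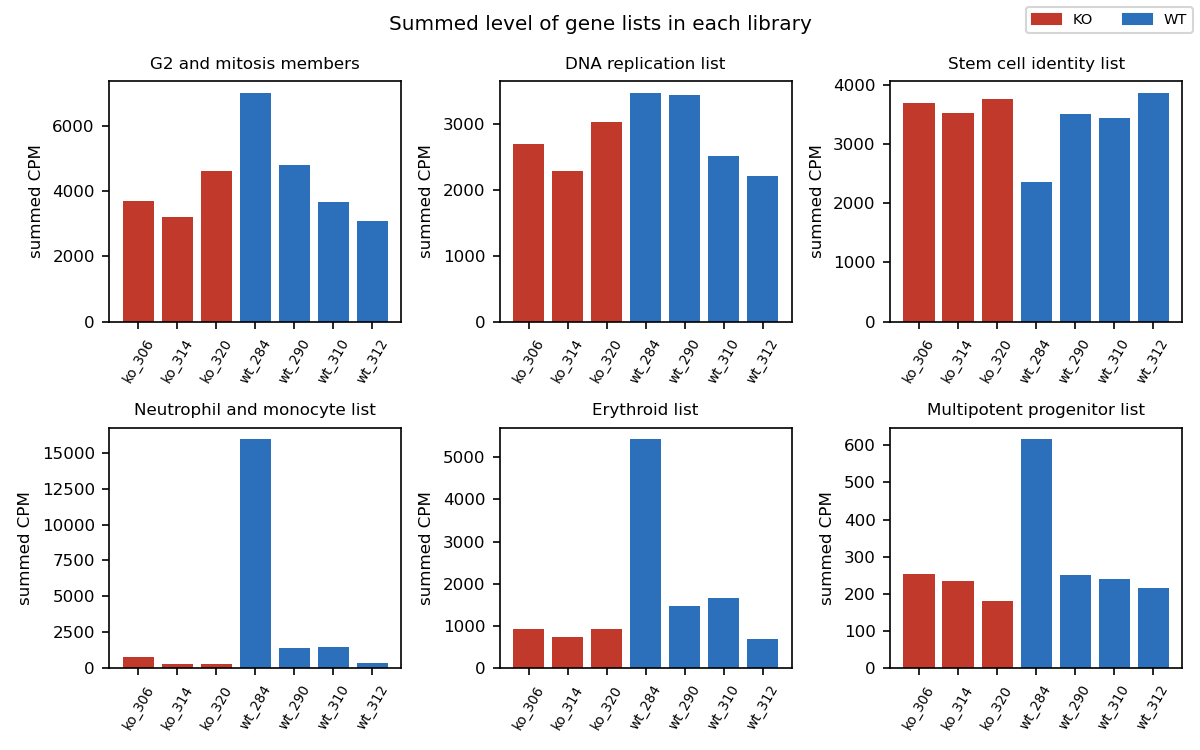
Summed CPM of 6 gene lists in each library, KO in red on the left and WT in blue on the right, each panel with its own axis from 0. The sum of the mitotic members is highest in wt_284 at 7006 CPM, where the neutrophil and monocyte, erythroid and progenitor lists peak and the stem cell list is lowest.

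The wider machinery of cell division was compared through 6 further lists, in which 153 of 155 genes were tested. EdgeR called 0 of them, with adjusted p from 0.992 to 0.999 and 6 (3.92%) at an unadjusted p under 0.05, near the 3.27% of all genes tested. Of the 153 genes 103 were below 0 and 50 above, and without wt_284 these numbers were 79 and 74. Other spindle and cytokinesis genes had 24 of 29 below 0 with a median of -0.27, and condensin and cohesin genes had 14 of 16 below 0 with a median of -0.11. DNA replication genes had 22 of 30 below 0 with a median of -0.10. Mitotic entry regulators had 13 of 21 and a median of -0.06, the APC/C, checkpoint and separase list had 15 of 26 and -0.04, and other centromere and kinetochore genes had 15 of 31 and 0.02. Without wt_284 the spindle and cytokinesis list had 22 of 29 below 0, with a median of -0.11, the DNA replication list had 17 of 30 and -0.01, and the mitotic entry list had 8 of 21 and 0.12. With mice above 300 the values were 15 of 29 and -0.02 for spindle and cytokinesis, 5 of 30 and 0.19 for DNA replication, and 6 of 21 and 0.21 for mitotic entry. The summed level of the DNA replication list, 2694, 2281 and 3018 CPM in ko_306, ko_314 and ko_320 against 3465, 3441, 2511 and 2208 CPM in wt_284, wt_290, wt_310 and wt_312, followed the order of the mitotic members within each genotype.

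**Figure D5:**
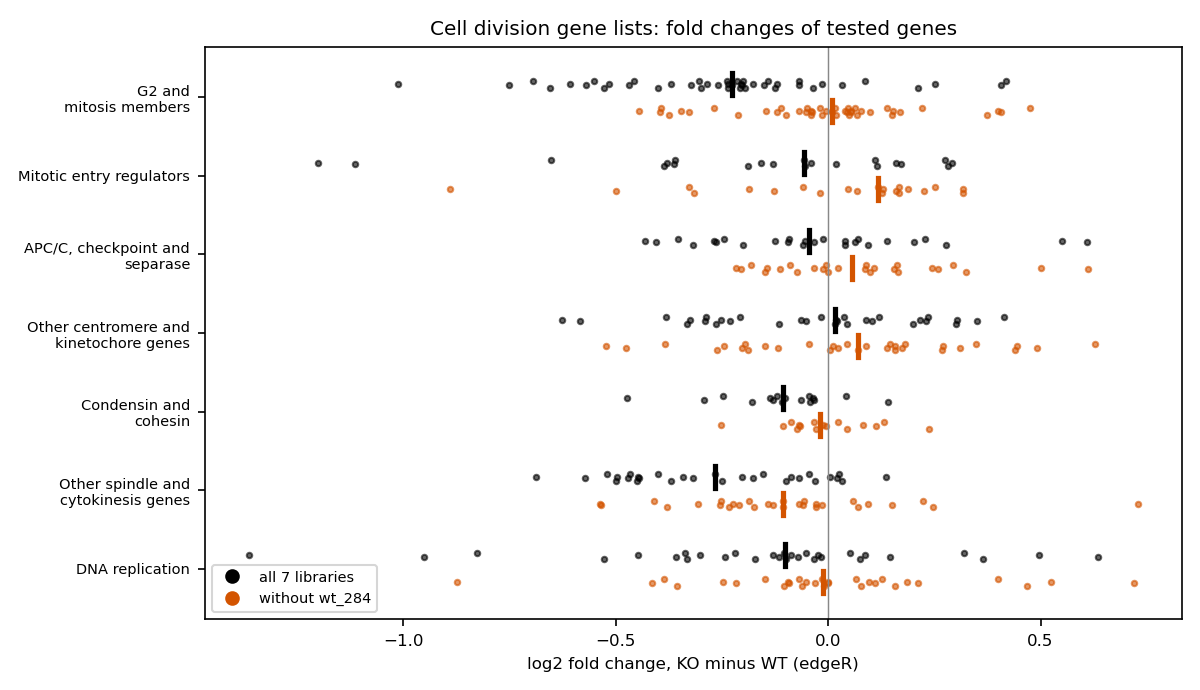
Log2 fold change (KO minus WT, edgeR) of each tested gene in the mitotic group and in 6 further lists of cell division genes, with all 7 libraries (black) and without wt_284 (orange), bars marking the medians. The median of the mitotic group is -0.23 with all libraries and 0.01 without wt_284.

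Single genes of these lists that had the smallest p are given as values, since none was called. Cdc25b and Cdc25c, phosphatases that remove the inhibitory phosphates from CDK1, had -1.11 ± 0.50 and -1.20 ± 0.54 (SE). Cdc25b stood at 20.3, 9.69 and 14.9 CPM in KO, against 66.2, 27.3, 20.9 and 15.7 CPM in WT, with ko_306 and ko_314 on both sides of wt_312 and wt_284 far above all, and its value without wt_284 was -0.50. Ccne1, the cyclin E1 that opens S phase, had 7.84, 3.88 and 7.13 CPM in KO, against 30.2, 10.3, 12.99 and 11.6 CPM in WT, with all KO below all WT libraries and a log2 fold change of -1.36 ± 0.46 (SE), or -0.87 without wt_284. Rfc3, a subunit of the clamp loader of replication, had 25.8, 35.8 and 29.4 CPM in KO, against 22.7, 18.4, 18.2 and 18.7 CPM in WT, and 0.64 ± 0.24 (SE). Anapc10, an APC/C subunit that binds substrates, had 14.4, 19.1 and 16.0 CPM in KO, against 10.8, 11.0, 10.9 and 10.5 CPM in WT, and 0.61 ± 0.29 (SE). KO and WT ranges did not meet for Rfc3 and Anapc10, with KO above, and wt_284 was the highest WT library for Rfc3. Over all 6 lists the ranges did not meet for 7 of 153 genes (4.58%), near the 4.86% of all genes tested. Anapc16, another APC/C subunit, had 0.55 ± 0.24, Shcbp1, a protein of the midbody, had -0.57 ± 0.26, and Cit, the kinase citron of cytokinesis, had -0.50 ± 0.23. Nsl1 and Cenpl of the kinetochore had -0.58 ± 0.30 and -0.63 ± 0.37, and the condensin subunits Ncaph and Ncapg2 had -0.47 ± 0.28 and -0.25 ± 0.24 (SE).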

How the data were processed

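Reads were processed with cutadapt and Salmon, per the submitters' processing notes, which give no versions. The authors deposited a table of estimated counts, whole numbers already, for each gene and mouse. Genome build, annotation and strand setting of that step: not given in the sources used here. Each of the 7 library columns carries the name of its mouse, and 0 columns were left unused. The labels call the molecule polyA RNA, while their protocol names a stranded kit for total RNA.

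The 15372 genes that passed filterByExpr were fitted with edgeR 4.0.16 (R 4.3.3) by the robust quasi-likelihood method on TMM-scaled libraries. Fold changes are KO over WT, and p-values were adjusted by Benjamini-Hochberg with a threshold of 0.05. The SE is the log2 fold change over the root of F. DESeq2 1.42.0, RLE factors, no filter and leaving out each mouse were alternatives, and the fit with mice above 300 was added after seeing the data. No label names a batch.

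Members and lists were chosen with earlier results of these data known. Every member is named. Values of each library are given, per role list, for the 2 most abundant members and the 1 with the smallest p, and for Kif2c, added after its values were seen. Of each further list of cell division genes the 2 genes with the smallest p are named. The cell type lists do not follow this rule in full. Irf8 and Cpox are among the 2 genes with the smallest p of their lists, while Ly86 and Trim10, the others, have no values here. Genes without counts in KO are named too, with Emcn, Kit, Mpo, Elane and 5 other stem cell genes as checks. Gene positions and exon lengths are from GENCODE M21 (GRCm38), which held all 43 identifiers in the same version.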

Additional observations from a re-analysis of the deposited data

Results flagged for a closer look

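Cdca3 in wt_284, at 63.5 CPM, stood far from the other WT libraries, which had 22.1 to 27.7 CPM. It was the only such case among 45 checks of a WT library against the other 3 (the 43 members, their sum and Emcn), and chance alone gives about 1 in 20 groups such a case. wt_284 also had the highest neutrophil and monocyte, erythroid and progenitor sums, whose part in this value was not tested.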

How the results depend on the processing

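No member was called in any of the 11 other fits. EdgeR called 1 gene over all genes with all libraries, DESeq2 called 13, edgeR with no filter on low counts 81, edgeR with mice above 300 7, and the fits that left out 1 mouse between 1 and 3. The number of members below 0 was 37 with all 7 libraries, and also 37 with DESeq2, RLE factors or no filter. It was 10 with mice above 300, and between 21 (without wt_284) and 39 (without wt_310) when 1 mouse was left out. The members' median log2 fold change ran there from -0.40 (without ko_320) to 0.01 (without wt_284), with -0.08 without ko_314, so more than 1 library moves it. Without ko_314 28 members were below 0. With mice above 300 the log2 fold changes that turned from below to above 0 were Ccnb1 0.59, Plk1 0.63, Aurkb 0.28, Bub1b 0.30, Pbk 0.081, Birc5 0.13, Cdca8 0.46, Cenpe 0.33, Cenpf 0.34, Nuf2 0.19, Spc24 0.26, Mad2l1 0.028, Cdc20 0.048, Mki67 0.25, Top2a 0.25, Smc4 0.072, Cdca2 0.15, Kif11 0.15, Tpx2 0.050, Nusap1 0.014, Hmmr 0.20, Tacc3 0.083, Prc1 0.23, Kif23 0.14, Kif20a 0.66, Ect2 0.30, Anln 0.0063. When 1 mouse was left out, the log2 fold change crossed 0 in at least 1 fit for 19 members: Ccnb1 from -0.51 to 0.17, Plk1 from -0.58 to 0.14, Aurkb from -0.54 to 0.098, Ttk from -0.041 to 0.18, Bub1b from -0.39 to 0.046, Pbk from -0.50 to 0.045, Cenpe from -0.52 to 0.098, Cenpf from -0.19 to 0.15, Nuf2 from -0.37 to 0.15, Spc24 from -0.16 to 0.12, Mad2l1 from -0.30 to 0.19, Cdca2 from -0.24 to 0.069, Kif2c from -0.088 to 0.38, Hmmr from -0.43 to 0.044, Tacc3 from -0.37 to 0.017, Prc1 from -0.40 to 0.018, Kif23 from -0.36 to 0.064, Kif20a from -0.51 to 0.054, Ect2 from -0.31 to 0.0093. These fits have fewer samples, and the cause was not tested. No paired analysis was possible because mouse numbers are unique and no label pairs KO with WT mice. Every member had at least 60 counts in every library. Each mouse gave 1 library, so spread between mice and spread from library preparation cannot be told apart.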

Other observations

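Among the 153 further genes of cell division, KO and WT ranges did not meet for 7 (4.58%), about the 4.86% of all genes tested for which this held, and edgeR called none of them. Beside Rfc3, Anapc10, Ccne1, Nsl1 and Shcbp1, these were Bora and Depdc1a, both chosen after their values were seen. Bora, the partner with which Aurora A activates Plk1, had 36.9, 39.5 and 34.1 CPM in KO, against 28.2, 31.7, 29.0 and 32.2 CPM in WT, with a log2 fold change of 0.28 ± 0.20 (SE) and an adjusted p of 0.992. Depdc1a, a mitotic protein, had 13.6, 13.4 and 13.2 CPM in KO, against 27.8, 15.3, 16.5 and 14.9 CPM in WT, with -0.47 ± 0.31 (SE), or -0.21 without wt_284. Shcbp1 had 20.8, 13.7 and 21.4 CPM in KO, against 29.6, 25.0, 29.8 and 26.8 CPM in WT, and its log2 fold change without wt_284 was -0.54.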
